A study of Mus musculus with 4 samples.

Results

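Dividing microglia were chosen by their own transcripts from 4 droplet single-cell RNA libraries of mouse brain microglia. A dividing cell had 3 or more unique molecular identifiers (UMIs, single counted transcripts) summed over 10 genes of replication and mitosis, namely Top2a, Mki67, Ube2c, Birc5, Pbk, Cenpf, Nusap1, Prc1, Cdc20 and Rrm2. It also had at least 1000 UMIs, at least 500 genes, at most 10% of UMIs from mitochondrial genes and at least 1 UMI of Tmem119, a microglial surface protein. The rule chose 58 of 8220 microglia, out of 8486 barcodes. All mice were C57BL/6 and were treated on postnatal day 21, and each library pooled 4 mice. The groups were sham controls and mice given whole-brain irradiation with a single dose of 8 Gy, each taken at 6 h or at 1 week. The labels name the tissue as brain, whereas the series text speaks of hippocampal microglia. With 1 pool per group, no difference between groups has a replicate check, and the animals within a pool cannot be told apart.

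Microglia are the resident macrophages of the brain and keep their number by local division. A cell that enters the cycle copies its DNA in S phase, a step that needs the MCM helicase, the clamp protein PCNA and ribonucleotide reductase, of which Rrm2 is a subunit. In G2 and mitosis the kinase Cdk1 with cyclins A and B drives chromosome condensation and spindle assembly, and topoisomerase II alpha (Top2a) untangles the chromosomes. Ionising radiation activates p53, whose target Cdkn1a encodes p21, an inhibitor of cyclin-dependent kinases that can halt the cycle.

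Many genes of G2 and mitosis share 2 short promoter elements, a CCAAT box, read by the factor NF-Y, and the cell cycle homology region with the core TTTGAA, read by the MuvB complexes. The promoters below are from RefSeq on GRCm38.p6, with any such letters on either strand in capitals. Top2a and Mki67 are 2 genes of the rule that hold both elements. Ccnb2 is a B-type cyclin, and Hmmr had the highest fitted fold in dividing cells. Both show only CCAAT in the printed bases. Cdkn1a is shown for contrast, with the p53-type pair of half-sites CATGNNNNNNCATG in capitals. Each line gives up to 150 bases that end before the gene, 5′ to 3′ on the gene's strand: Top2a at chr11:99024190-99024339 (minus strand), Mki67 at chr7:135716380-135716529 (minus), Ccnb2 at chr9:70421555-70421704 (minus), Hmmr at chr11:40733438-40733587 (minus) and Cdkn1a at chr17:29090829-29090975 (plus, at the upstream of 2 listed starts).
Top2a: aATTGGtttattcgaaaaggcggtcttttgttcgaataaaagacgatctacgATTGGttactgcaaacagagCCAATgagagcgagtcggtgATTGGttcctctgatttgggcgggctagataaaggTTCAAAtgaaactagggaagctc
Mki67: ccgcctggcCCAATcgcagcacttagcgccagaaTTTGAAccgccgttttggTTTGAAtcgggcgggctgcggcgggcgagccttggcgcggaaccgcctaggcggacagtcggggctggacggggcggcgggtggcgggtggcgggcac
Ccnb2: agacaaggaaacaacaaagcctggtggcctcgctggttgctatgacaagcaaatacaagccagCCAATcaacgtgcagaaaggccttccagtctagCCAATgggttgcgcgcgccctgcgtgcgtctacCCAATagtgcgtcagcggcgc
Hmmr: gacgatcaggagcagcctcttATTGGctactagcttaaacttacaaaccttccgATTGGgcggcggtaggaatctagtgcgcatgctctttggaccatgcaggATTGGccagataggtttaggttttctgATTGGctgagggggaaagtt
Cdkn1a: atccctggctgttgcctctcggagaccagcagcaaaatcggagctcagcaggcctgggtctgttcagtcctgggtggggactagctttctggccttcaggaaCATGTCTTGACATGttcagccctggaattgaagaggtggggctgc
Over the 250 bases before the start, TTTGAA on either strand was found in 26 of the 80 G2 and mitosis promoters that matched (32.5%), in 8 of 56 S-phase promoters (14.3%) and in 16.3% of all 27025 promoters. CCAAT on either strand was found in 54 of 80 (67.5%), 36 of 56 (64.3%) and 34.5%, in the same order. The rule genes had 9 matched promoters, of which 4 held TTTGAA and 7 held CCAAT, with Birc5 and Nusap1 holding neither. Among 41 promoters of homeostatic microglial genes, 4 held TTTGAA and 18 held CCAAT. CATGNNNNNNCATG, which reads the same on both strands and was searched for after the Cdkn1a promoter had been seen, was found in 0.507% of all promoters, in 1 of 48 promoters of p53 targets (Cdkn1a) and in none of the G2 and mitosis or S-phase promoters. These matches are letters in a window, not measured binding sites.

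The libraries held 2670, 2023, 1623 and 2170 barcodes for the 6 h sham and 6 h irradiated pools and then the 1-week sham and 1-week irradiated pools, the order used throughout, with 5706955 to 9760928 deposited UMIs each. Dividing cells were deeper than the rest: their median was 5263 to 6177 UMIs, against 3422 to 3600 in the other microglia. Each dividing cell was therefore set beside 10 other microglia of its own library with the nearest UMI totals, whose medians were 5591.5, 5495, 5254 and 5196.5 against 5603.5, 5500.5, 5263 and 6177. The match was poor in the irradiated library at 1 week, where 3 nearest cells in place of 10 gave a median of 6175. Of the other libraries, those at 6 h showed more genes in dividing cells, with medians of 2475.5 and 2382.5 against 2065 and 1987.5, and the sham library at 1 week did not, with 1925 against 1941. No doublet caller was run, and 1, 0, 0 and 2 dividing cells had over 10000 UMIs. Libraries shared 4 to 12 barcodes in pairs, none of them dividing in either.

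The microglial label held for the chosen cells, each of which had 7 to 9 of 9 microglial markers and 23 to 746 UMIs of them. Markers of oligodendrocyte precursors, pericytes, ependymal cells, neutrophils, T cells, natural killer cells and erythroid cells were at 0 UMIs in the dividing cells of every library. Neural progenitor markers gave 6, 4, 1 and 4 UMIs, at 54.6 CPM (UMIs scaled to a common total; exact 95% interval 20.04 to 119) against 7.76 (3.35 to 15.3) in the matched cells of the sham library at 6 h, with Sox2, Dcx, Sox11, Hes5, Eomes and Tbr1 at 0 in the dividing cells of every library. Endothelial markers stood at 128 CPM (34.8 to 327) against 28.8 (13.2 to 54.7) in the irradiated library at 6 h, with Cldn5, Flt1, Cdh5, Kdr and Ly6c1 at 0, and no higher than in the matched cells elsewhere. Cells with at least 2 markers of 1 other type numbered 2 of 18, 2 of 6, 0 of 3 and 5 of 31 dividing cells, against 136 of 2623, 115 of 1898, 71 of 1561 and 105 of 2138 microglia. Markers of border macrophages gave 6, 0, 0 and 24 UMIs, all from Mrc1 and Pf4. The other listed genes Cd163, Lyve1, F13a1 and Ms4a7 were at 0 in the dividing cells. In the irradiated 1-week library the level of these markers was 117 CPM (74.7 to 173), from 11 of 31 dividing cells. The matched cells there stood at 27.7 (20.4 to 36.8). In the sham library at 6 h the level was 54.6 (20.04 to 119) against 16.5 (9.61 to 26.4). Monocyte markers gave 16, 2, 4 and 6 UMIs, all from Plac8, at 146 CPM (83.2 to 236) against 34.0 (23.7 to 47.2) in the sham library at 6 h and 264 (72.0 to 676) against 19.8 (4.08 to 57.9) in the sham library at 1 week, with Ccr2, Ly6c2 and Vcan at 0. Their part in the results below was not tested, apart from a fit without the cells that carried 2 or more markers of 1 other type.

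Dividing cells were rare in 3 libraries and most frequent 1 week after irradiation. They made up 18 of 2623 microglia in the sham library at 6 h (0.686%, exact Clopper-Pearson 95% interval 0.407 to 1.08%), 6 of 1898 in the irradiated library at 6 h (0.316%, 0.116 to 0.687%), 3 of 1561 in the sham library at 1 week (0.192%, 0.0397 to 0.561%) and 31 of 2138 in the irradiated library at 1 week (1.45%, 0.987 to 2.05%). At 1 week the intervals of irradiated and sham did not overlap, while at 6 h they did. The 2 sham libraries themselves stood at 0.686% and 0.192%, with intervals that overlapped between 0.407% and 0.561%. The intervals cover counting error only, since all cells of a group came from 1 pool.

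Thinning every cell to 2000 UMIs, which left out shallower cells, gave the same order: 16 of 2541 (0.630%), 3 of 1840 (0.163%), 2 of 1377 (0.145%) and 29 of 2035 (1.43%). The threshold of the rule mattered little for that order. At 2 or more UMIs the cells numbered 26, 11, 6 and 36, and at 5 or more 16, 4, 2 and 30. Just outside the threshold lay 8, 5, 3 and 5 microglia with exactly 2 UMIs, and just inside it 1, 2, 1 and 1 with exactly 3. A single UMI of the 10 genes was found in 67, 48, 22 and 46 microglia, none of which counts as dividing here.

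**Figure D1:**
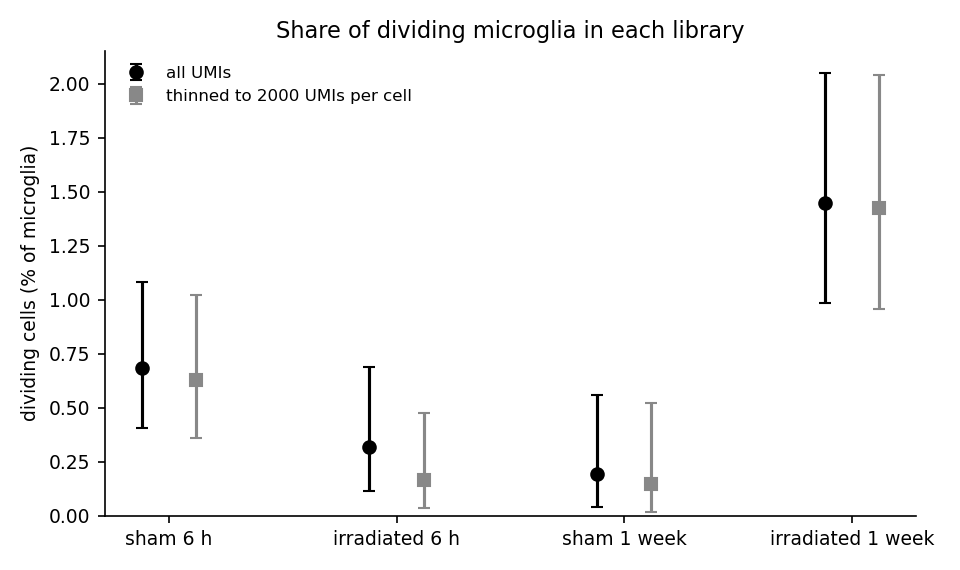
Percent of microglia in each library (vertical axis) that met the rule, with exact 95% intervals, as counted and after thinning to 2000 UMIs. The irradiated library at 1 week stands at 1.45%, above the interval of the sham library of that time.

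The 10 genes of the rule describe the cells and are not findings. Most dividing cells were far past the threshold, with a median of 40 rule UMIs in the sham library at 6 h and 35 in the irradiated library at 1 week, and maxima of 70 and 96. In the irradiated library at 6 h the median was only 6, and 2 of its 6 cells had 10 or more. In the sham library at 1 week the 3 cells had a median of 11 and a lowest value of 3. Top2a had 139, 25, 7 and 256 UMIs in the dividing cells and was present in 51 of the 58. Mki67, the gene of the proliferation antigen Ki-67, had 53, 9, 10 and 116 UMIs, Ube2c, which carries ubiquitin to the anaphase-promoting complex, 86, 4, 22 and 153, and Birc5, the chromosomal passenger protein survivin, 52, 10, 13 and 106. Rrm2 had 46, 18, 0 and 90 UMIs, so that it was not detected in the sham library at 1 week.

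Some members were weak. The cell of the sham library at 1 week with 3 rule UMIs had none of Top2a, Stmn1 or Hmgb2. One of the 6 cells of the irradiated library at 6 h had 2483 UMIs, 914 genes, 1 Tmem119 UMI and 3 rule UMIs, and it held 132 of the 215 Ccl4 UMIs and 59 of the 102 Ccl3 UMIs of its library's dividing cells.

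The balance of S-phase and mitotic transcripts differed from cell to cell. More UMIs of 73 S-phase genes than of 99 G2 and mitosis genes were found in 5 of 18, 2 of 6, 1 of 3 and 9 of 31 cells, 17 of 58 in all. Many cells held both, such as 1 cell of the irradiated library at 1 week with 96 S-phase and 80 mitotic UMIs. Of the genes named next, Ccnb1, Pcna and Mcm5 belong to the 2 lists, so the split itself sets their direction. In the irradiated library at 1 week the 22 cells on the mitotic side had Ccnb1, cyclin B1, at 478 CPM (375 to 602), and the 9 on the S side had none. Cdc20, the activator of the anaphase-promoting complex and a gene of the rule, stood at 590 against 37.5 CPM. Pcna went the other way, with 770 CPM on the S side against 144, as did the helicase subunit Mcm5, with 263 against 65.5. The sham library at 6 h showed the same arrangement over 13 and 5 cells, with Ccnb1 at 518 against 37.1 CPM and Pcna at 96.4 against 557.

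P2ry12, the purine receptor by which resting microglia sense nucleotides, is in neither list, and it was higher on the S side in both of these libraries: 4824 against 2707 CPM in the irradiated library at 1 week and 4382 against 2796 in the sham library at 6 h. Both sides lay below the matched other cells, at 6384 and 5232 CPM. The split was made on these cells, so these values are a description without a test.

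**Figure D2:**
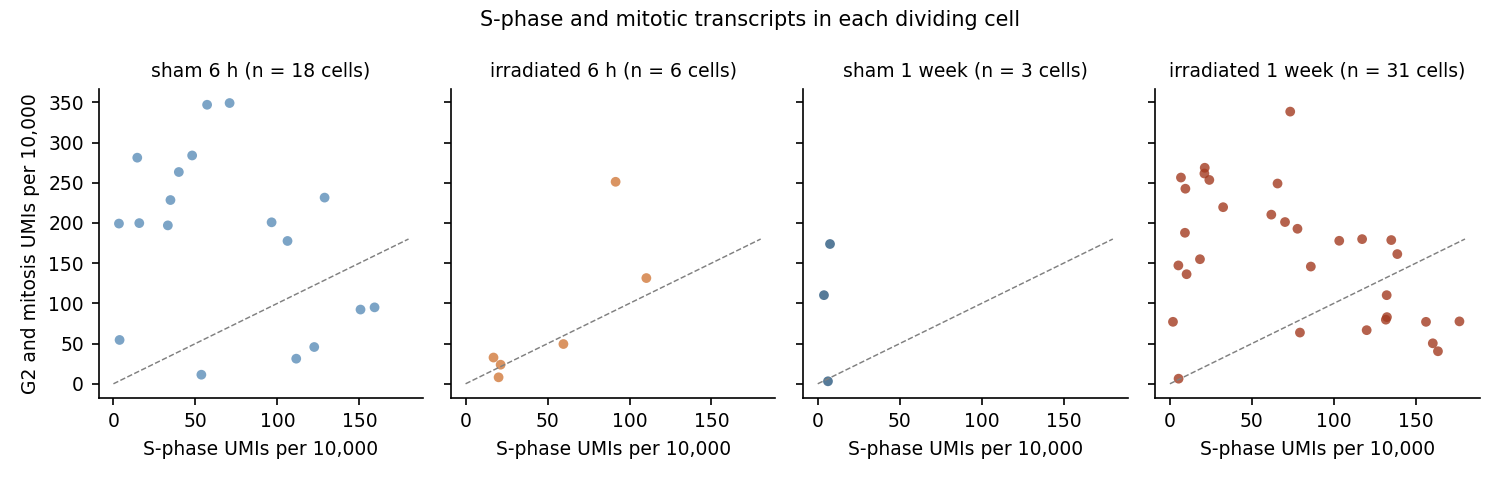
Each point is 1 dividing cell, with its S-phase UMIs per 10000 on the horizontal and its G2 and mitosis UMIs per 10000 on the vertical axis, in 1 panel per library, and the dashed line marks equal values. In 17 of 58 cells the S-phase UMIs outnumber the mitotic ones, and most cells of the sham 6 h and irradiated 1-week libraries lie on the mitotic side.

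Dividing and depth-matched other cells were then compared gene by gene. UMIs were summed per library and class into 8 sums, and edgeR's quasi-likelihood test with library as a block and Benjamini-Hochberg adjustment was fitted to 4951 genes, with the 10 rule genes left out of the test. At an adjusted p below 0.05, 408 genes (8.24% of those tested) were higher and 408 (8.24%) lower in dividing cells. The composition correction of edgeR (TMM) shifted the folds down by 0.21 to 0.58 on the log2 scale, and the median log2 fold over all genes was -0.12. Without it the median was 0.13, and 563 genes (11.4%) were higher and 148 (2.99%) lower, so that 79.2% of its calls were in the higher direction, where the scaled fit called equal numbers. Where the count of lower genes of a list differed without TMM, both are given. Level values below are CPM without that correction, and intervals for a single library cover counting error only, which is too narrow for genes that differ strongly from cell to cell.

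**Figure D3:**
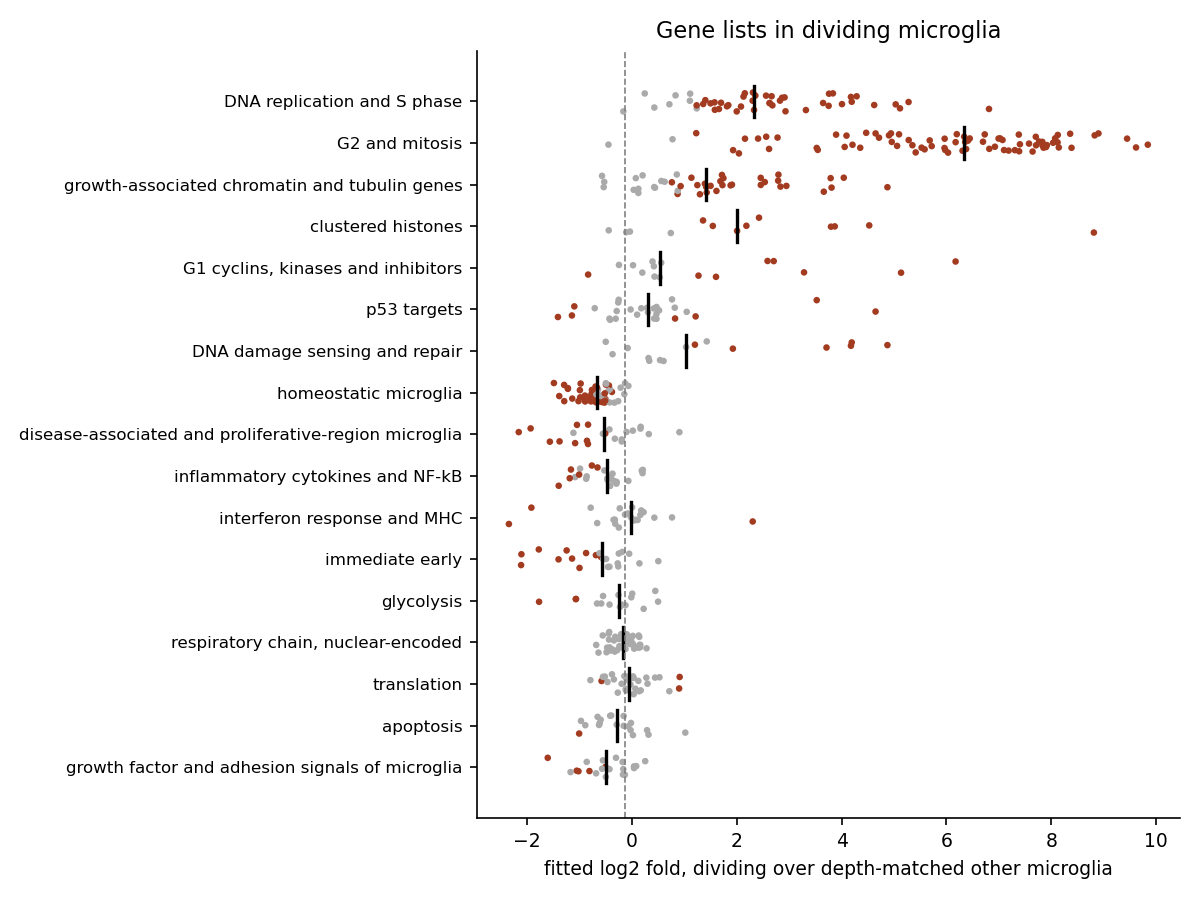
Fitted log2 folds, dividing over depth-matched other microglia, of the tested genes of each list (points; red, adjusted p below 0.05), with the list's median as a black bar and the median of all tested genes as a dashed line. The medians of the S-phase, mitotic, chromatin and histone lists lie at 1.42 to 6.34, all 58 tested homeostatic genes lie below 0, and the respiratory and translation lists lie around the dashed line.

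Cell-cycle genes outside the rule were higher almost without exception, which moves with the rule and is given as a description. Of 79 tested genes of G2 and mitosis, 77 were higher and none lower, with a median log2 fold of 6.34, or 6.20 when the 9 genes with 0 UMIs in all matched cells were set to their lower bound. Hmmr, a spindle-associated receptor of hyaluronan, had 35, 1, 3 and 71 UMIs in dividing cells and none in the matched cells, at least 323-fold more over the 4 libraries when 3 counts stand for the 0. Ccna2, cyclin A2, had 29, 2, 2 and 61 UMIs against none, at least 276-fold, and the kinase Plk1 was at least 241-fold higher. Ccnb1 had 44, 3, 9 and 73 UMIs against 0, 1, 0 and 1. Cdk1, the mitotic kinase, was present at a low level in the matched cells as well, with 53, 10, 2 and 96 UMIs against 25, 3, 4 and 24 (log2 fold 4.36).

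Of 49 tested S-phase genes, 41 were higher and none lower (median 2.33). The replication genes had a base level in other microglia, and their folds were smaller than those of mitosis: Pcna had 23, 11, 0 and 63 UMIs against 63, 28, 6 and 138 (log2 fold 1.58), and Mcm5 and Mcm2 had log2 folds of 2.63 and 1.36. Summed over the list, the S-phase genes of the sham library at 1 week gave only 9 UMIs in dividing cells, a log2 ratio of -0.66 (-1.82 to 0.31), whereas the other libraries lay at 2.44 to 2.86. The mitotic list was higher in all 4, from 3.43 in the irradiated library at 6 h to 4.82 in the sham library at 6 h. In the irradiated library at 6 h, 1 of the 6 cells held 129 of the 234 mitotic UMIs and 55 of the 84 rule UMIs. The others there had 31, 20, 29, 2 and 23 mitotic UMIs. In the sham library at 1 week the mitotic UMIs came from 2 of the 3 cells, with 58 and 116 beside 2 and 5 S-phase UMIs, while the third cell had 1 and 2.

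Chromatin and tubulin genes of growing cells were higher in 29 of 43 tested and lower in none (median 1.42). H2afz, a histone variant made outside S phase too, was the steadiest of those named, with log2 ratios of 2.68, 2.94, 2.78 and 2.64 in the 4 libraries. Stmn1, which destabilises microtubules, had 185, 62, 23 and 384 UMIs against 115, 31, 12 and 202 (log2 fold 3.79). Hmgb2, a chromatin bending protein, had 236, 35, 18 and 328 against 86, 18, 11 and 162 (4.04), and the tubulin Tuba1b had a log2 fold of 1.69. Clustered histone genes were higher in 9 of 13 tested and lower in none (median 2.01), among them Hist1h1b (8.81) and Hist1h2ap (4.53). Replication histone messages lack a poly(A) tail for the most part, and their family members are near copies of each other, so these counts are uncertain gene by gene.

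Among 16 tested G1 cyclins, kinases and inhibitors, 7 were higher and 1 lower (7 and 0 without TMM), and the higher ones included brakes of the cycle as well as drivers. The counts in this paragraph stand beside 8.24% of all tested genes called in each direction (11.4% higher and 2.99% lower without TMM). Cdkn2c, the Cdk4 and Cdk6 inhibitor p18, had 42, 5, 3 and 77 UMIs in dividing cells against 12, 1, 0 and 13 (log2 fold 5.14). Cdkn2a, the locus of p16 and p19Arf, which a 3′ count does not separate, had 9, 1, 2 and 16 UMIs against 1, 0, 0 and 1 (6.18), in 18 of the 58 cells. Cdkn2d, Cdk2, Myc, Rbl1 and Skp2 were the other higher genes, and the antiproliferative Btg1 was lower (log2 fold -0.83), a call that was lost without TMM. Ccnd1, cyclin D1 of the G1 phase, had 6, 16, 0 and 43 UMIs against 79, 107, 17 and 363 and did not pass (edgeR adjusted p = 0.629). Of 15 tested genes of DNA damage sensing and repair, 6 were higher and none lower (among them Chek2, Clspn and H2afx), and H2afx, which marks broken DNA once phosphorylated, had 87, 10, 8 and 161 UMIs against 31, 5, 2 and 26 (4.88).

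Of the p53 targets, 58 were listed and 28 tested: 4 were higher and 3 lower (median log2 fold 0.30), and 6 higher and 2 lower without TMM. Of all tested genes, 8.24% were called in each direction. Of the 4, Gtse1 (log2 fold 4.65) and Psrc1 (3.53) are also known as genes of G2 and of the spindle, and the others were Cdkn1a and Mdm2. Ak1 (-1.41), Cd82 (-1.14) and Dcxr (-1.10) were lower, Dcxr not without TMM.

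Cdkn1a differed between dividing and other cells mainly in the sham library at 6 h. Dividing and matched cells held 93 and 96 UMIs there, 101 and 834 in the irradiated library at 6 h, 3 and 13 in the sham library at 1 week, and 414 and 2898 in the irradiated library at 1 week. As levels these were 846 against 93.1, 3226 against 2671, 198 against 85.8 and 2011 against 1708 CPM. The irradiated libraries were thus high in both classes. The log2 ratios were 3.18 (2.76 to 3.61), 0.27 (-0.04 to 0.57), 1.21 (-1.24 to 3.07) and 0.24 (0.08 to 0.38). The fitted log2 fold over the 4 libraries was 0.83 ± 0.20 (SE, edgeR quasi-likelihood test, adjusted p = 0.00568), but it was 0.12 with an adjusted p of 0.877 without the sham library at 6 h, and DESeq2 did not call it (adjusted p = 0.32).

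Single cells show how uneven this was. In the sham library at 6 h, 12 of 18 dividing cells had a Cdkn1a UMI, with a median of 2, and 1 cell alone had 50 of the 93. Without that cell the library's dividing cells still had 428 CPM, a log2 ratio over matched cells of 2.22 (1.66 to 2.76), while the fit over the 4 libraries lost the call (log2 fold 0.51, edgeR adjusted p = 0.385). In the irradiated library at 6 h the 6 cells had 5, 22, 19, 22, 4 and 29 UMIs, and in the irradiated library at 1 week the 31 cells ranged from 0 over a median of 10 to 69. The cell with 69 was a weak member with 3 rule UMIs, and the next, with 37, had 96 rule UMIs and was also the deepest member, with 13522 UMIs. High counts of both also stood together in the sham cell with 50 Cdkn1a and 68 rule UMIs and in an irradiated cell at 6 h with 22 and 55. Other cells with many rule UMIs had fewer Cdkn1a UMIs. In the sham library at 6 h, cells with 70 and 63 rule UMIs had 7 and 0. In the irradiated library at 1 week, cells with 89, 85 and 84 had 13, 7 and 5. Whether the 2 counts go together was not tested. The 3 sham cells at 1 week had 1, 2 and 0 Cdkn1a UMIs.

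The difference itself, dividing minus other in irradiated against sham libraries, was tested in a fit with an interaction term. The 6 h and 1-week libraries of a treatment stood as its replicates in this fit. Its p-values therefore do not measure a replicated effect of irradiation at either time. Only 2 of 4951 genes passed (0.0404%), against 95 at an unadjusted p below 0.05. Cdkn1a had an interaction of -2.48 ± 0.462 on the log2 scale (SE, edgeR adjusted p = 0.000419). Klf2, a transcription factor of quiescence in leukocytes that was named after its values were seen, had -2.41 ± 0.508 (edgeR adjusted p = 0.00548). Klf2 had 232, 1, 11 and 49 UMIs in dividing cells against 739, 177, 157 and 943, with log2 ratios of 1.56 in the sham library at 6 h and of -4.15, -0.51 and -1.22 in the others. It too was uneven, since 3 of the 18 sham cells at 6 h had 83, 52 and 35 UMIs. Without the cell with most Cdkn1a the interaction of Cdkn1a was -1.71 (edgeR adjusted p = 0.629).

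**Figure D4:**
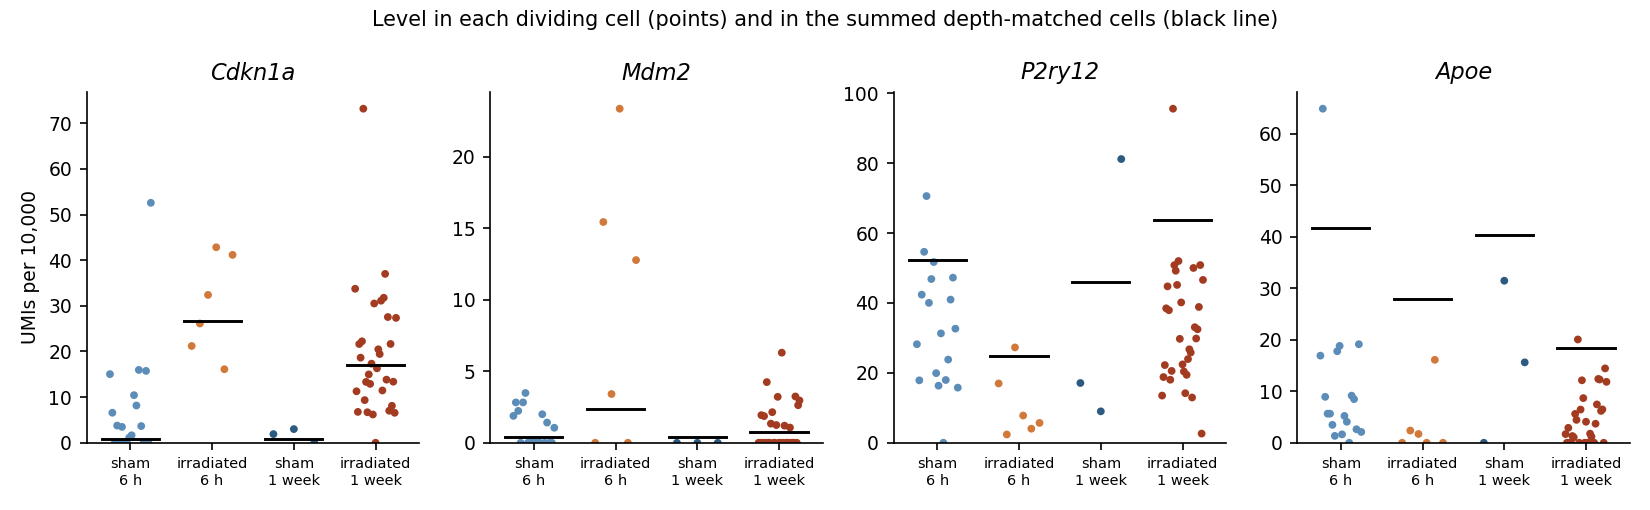
UMIs per 10000 of Cdkn1a, Mdm2, P2ry12 and Apoe in each dividing cell (points, linear axes), by library, with the level of the summed depth-matched cells as a black line. Cdkn1a is high in both classes of the irradiated libraries, and in the sham library at 6 h 1 cell, with 50 UMIs, stands above the other 17.

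Mdm2, the ubiquitin ligase by which p53 limits itself, had 11, 36, 0 and 26 UMIs in dividing cells against 40, 74, 6 and 122, or 100, 1150, 0 and 126 CPM against 38.8, 237, 39.6 and 71.9. It was higher in the fit (log2 fold 1.22 ± 0.27, edgeR adjusted p = 0.000137), most so in the irradiated library at 6 h, where the log2 ratio was 2.28 (1.66 to 2.87) and the 6 cells had 0, 13, 2, 12, 0 and 9 UMIs. Without that library the log2 fold was 0.79 (edgeR adjusted p = 0.133), and DESeq2 gave an adjusted p of 0.138. The death gene Bax did not pass (edgeR adjusted p = 0.967), with 173, 958, 462 and 355 CPM against 167, 660, 165 and 394. Ccng1, a feedback cyclin of p53, had 8, 18, 2 and 20 UMIs against 28, 114, 5 and 139 (edgeR adjusted p = 0.39), and Phlda3, an inhibitor of Akt, had 1, 17, 1 and 15 against 1, 97, 0 and 140 (0.809). The summed p53 list without Cdkn1a had log2 ratios of 0.43 (0.29 to 0.56), 0.85 (0.69 to 1.00), -0.21 (-0.60 to 0.16) and -0.23 (-0.33 to -0.13). The sum was thus higher in dividing cells of both 6 h libraries and not in those at 1 week. Much of it came from Btg2 and Ier5, with 173 and 110 of the 501 UMIs in dividing cells of the sham library at 6 h. In the matched cells of the irradiated library at 1 week they gave 3058 and 1889 of 9196. Their log2 ratios of irradiated over sham in matched cells at 6 h were only -0.15 and 0.26. The sum without them was not tested.

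Set irradiated over sham at 6 h, Cdkn1a, Mdm2, Ccng1, Bax and Phlda3 were higher in both classes of cells. Cdkn1a was higher in the irradiated library by a log2 ratio of 1.93 (1.51 to 2.35) in dividing cells and 4.84 (4.54 to 5.16) in the matched cells, Mdm2 by 3.52 and 2.61, Ccng1 by 2.98 and 3.75, and Bax by 2.47 and 1.98. At 1 week Cdkn1a was at 3.34 (1.79 to 5.63) and 4.32 (3.54 to 5.23), but Bax was at -0.38 (-1.50 to 0.98) in dividing and 1.25 (0.68 to 1.89) in matched cells, and Ccng1 at -0.44 (-2.48 to 2.70) and 1.31 (0.05 to 2.96). P2ry12 was lower at 6 h in both classes, at -1.69 and -1.07, and at 1 week stood at 0.27 (-0.19 to 0.76) and 0.47 (0.36 to 0.59). With 1 library per group these ratios have no replicate check, and at 1 week the sham side rests on 3 dividing cells.

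Homeostatic genes, those that set microglia apart from other macrophages in the healthy brain, were lower in dividing cells: 39 of 58 tested passed in that direction and none in the other, with a median log2 fold of -0.66 against -0.12 over all genes. All 58 were fitted below 0. Without TMM 14 passed and the median was -0.39 against 0.13, so the direction held and the number of calls did not. Among all tested genes, 8.24% were called lower, and 2.99% without TMM. The summed list was lower in each library, at log2 ratios of -0.47, -0.56, -0.22 and -0.39.

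P2ry12 had 350, 31, 41 and 670 UMIs in dividing cells against 5393, 777, 697 and 10832, that is 3185, 990, 2708 and 3255 CPM against 5232, 2488, 4600 and 6384. Each library's dividing cells were lower, by log2 ratios of -0.72, -1.33, -0.76 and -0.97, and the fitted log2 fold of -1.22 ± 0.15 (edgeR adjusted p = 3.61e-14) kept its call under every alternative, from -1.47 to -0.72. Cd33 (-1.49), Ecscr (-1.38), Lag3 (-1.29) and Ltc4s (-1.29) had the largest folds. Cx3cr1, the fractalkine receptor, was at 2293, 1150, 1783 and 2545 CPM against 2685, 2437, 2587 and 2826 (log2 fold -0.73, edgeR adjusted p = 0.000112), but lost the call without TMM (0.113), with DESeq2 (0.14), at 10 or more rule UMIs (0.143) and without the irradiated library at 1 week (0.129), and it was -0.46 (0.035) without the irradiated library at 6 h.

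Csf1r, the receptor on which microglial survival and division depend, differed little: 3694, 1917, 2840 and 2628 CPM against 4133, 2808, 3247 and 2623. Its fitted log2 fold of -0.50 (edgeR adjusted p = 0.00892) did not pass without TMM (0.547), with DESeq2 (0.387), or without the sham library at 6 h (0.136), the irradiated library at 6 h (-0.30, 0.186) or the irradiated library at 1 week (0.448). Tmem119, of which the rule required 1 UMI, was at 2238, 1597, 859 and 2730 CPM against 2247, 2002, 2502 and 2634, and its fitted log2 fold of -0.57 (edgeR adjusted p = 0.00547) lost its call in 8 alternatives, among them both of these and the fits without the irradiated library at 6 h (0.0523), the sham library at 1 week (-0.28, 0.227) or the irradiated library at 1 week (0.297). Sall1, a transcription factor of microglial identity, did not pass (edgeR adjusted p = 0.848). Dividing cells were thus below their neighbours in P2ry12 in all 4 libraries, with Csf1r at or somewhat below the level of other microglia.

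**Figure D5:**
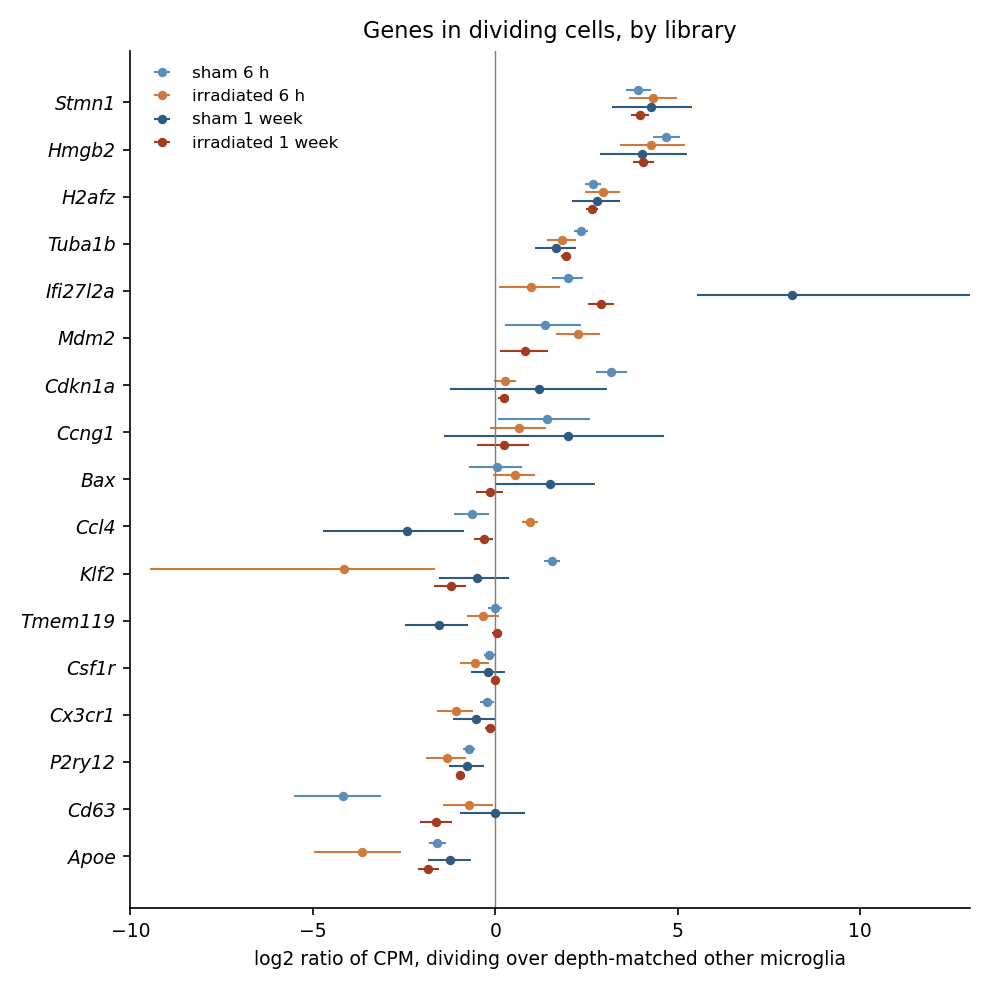
Log2 ratio of CPM, dividing over depth-matched other microglia, for named genes in each of the 4 libraries, with 95% counting intervals. P2ry12 and Apoe lie left of 0 in every library, H2afz right of 0, and the Cdkn1a ratio of the sham library at 6 h is 3.18. The interval of Ifi27l2a in the sham library at 1 week runs past the axis, and Mdm2, with no UMI in dividing cells there, has no point.

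Apoe, the lipid carrier that disease-associated microglia make in large amounts, was among the lowest genes. It had 153, 7, 26 and 106 UMIs in dividing cells against 4300, 871, 610 and 3108, or 1392, 224, 1717 and 515 CPM against 4172, 2789, 4026 and 1832. The fitted log2 fold of -2.16 ± 0.17 (edgeR adjusted p = 7.15e-33) kept its call under every alternative, from -2.29 to -1.09. Single cells were uneven here too, with a median of 2 UMIs and 69 in the highest. The tetraspanin Cd63 was at 63.7, 639, 859 and 228 CPM against 1158, 1044, 865 and 700 (log2 fold -1.93, edgeR adjusted p = 2.38e-15), near the other cells in the sham library at 1 week and lowest in the sham library at 6 h. Of 22 tested genes of disease-associated and proliferative-region microglia, 10 were lower and none higher (7 and 0 without TMM), including the lysosomal protease Ctsb and the ferritin gene Ftl1, which passed under both scalings. Among all tested genes, 8.24% were lower, and 2.99% without TMM.

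Inflammatory cytokine and NF-kB genes were lower in 6 of 24 tested and higher in none (3 and 0 without TMM), with Nfkbia, the inhibitor of NF-kB, at a log2 fold of -1.39. The share of all tested genes called lower was 8.24%, and 2.99% without TMM. Ccl3 was lower (-0.65, edgeR adjusted p = 0.00866) but not without TMM, while Ccl4, with 39, 215, 3 and 137 UMIs against 567, 1105, 161 and 1398, did not pass (edgeR adjusted p = 0.108). The summed list did not go one way: its log2 ratios were -0.56, 0.34, -1.55 and -0.16, and the positive one belongs to the irradiated library at 6 h, whose Ccl4 and Ccl3 came mostly from 1 cell.

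Immediate early genes, which cell isolation is known to induce in microglia, were lower in 10 of 22 tested and higher in none (7 lower and 1 higher without TMM). Socs3 (-2.11), Ier3 (-2.11), Hspa1a (-1.77) and Ier2 (-1.40) had the largest folds. The summed list was 0.20, 0.02, -1.61 and -0.63 by library, so that the 6 h libraries showed no lower sum and the 1-week libraries did. Interferon and MHC genes gave 1 higher and 2 lower of 23 (2 and 1 without TMM), beside 8.24% of all tested genes called in each direction. The higher one, Ifi27l2a, had 68, 16, 28 and 135 UMIs against 160, 81, 1 and 149 (log2 fold 2.31, edgeR adjusted p = 1.33e-24), but it was found in 28 of the 58 cells, with 45 UMIs in the highest, and DESeq2 did not call it (adjusted p = 0.0874). Ifit3 (-2.34) and Irf1 were lower, Irf1 not without TMM.

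Metabolic and translation genes mostly stayed near the median of all genes. The counts in this paragraph stand beside 8.24% of all tested genes called in each direction. None of 47 tested nuclear genes of the respiratory chain passed in either direction, 3 of 16 glycolytic genes were lower (Aldoa, Hk2 and Ldhb), and of 31 translation genes 2 were higher (Nop56 and Nop58, which help to process ribosomal RNA) and 1 lower (3 and 0 without TMM). Apoptosis genes gave 1 lower of 19 (Bcl2a1b). Growth factor and adhesion signals were lower in 5 of 21 (3 without TMM), among them the adaptor Tyrobp (-1.02) and Csf3r, the receptor of granulocyte colony-stimulating factor (-1.60). Summed ribosomal protein genes, a sign of RNA content, were at log2 ratios of -0.42, 0.02, 0.27 and -0.29, and mitochondrial genes at 0.15, 0.35, 0.77 and 0.10, and their part in the folds was not tested.

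Outside the lists, the lowest folds among genes with a lower CPM in each library belonged to Tk2, the mitochondrial thymidine kinase (-2.37), Cyp4v3, a fatty acid hydroxylase (-2.31), the calcium channel subunit Orai3 (-2.25), Gsto1, a glutathione transferase (-2.23), Tmem44 (-2.07), Fam213b (-2.03), the cholesterol exporter Abca1 (-1.95) and Cask (-1.93). All 8 had 0 UMIs in the dividing cells of the sham library at 1 week, against 1 to 20 in 10 times as many matched cells, so their direction is not measured in that library. Abca1 had 0, 0, 0 and 10 UMIs against 119, 30, 20 and 116, and Tk2 had 2, 0, 0 and 2 against 49, 15, 5 and 88. The cytosolic thymidine kinase Tk1, an S-phase gene, had a log2 fold of 5.12. Thymidine kinase transcripts thus lay at both ends of the comparison.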

How the data were processed

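Droplet libraries (10x Genomics) were deposited as matrices of raw UMI counts per gene and barcode, with barcode and gene lists. Per the submitters' processing notes they were made by the authors with Cell Ranger 2.0 on mm10, and no other setting is named in these sources. The cell rule was applied to these counts, and counts were summed per library and class. Each group is 1 library from a pool of 4 mice, so the 4 libraries serve as blocks. The p-values rest on a spread between libraries that was pooled over genes, not on the spread of each gene.

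Sums were tested with edgeR 4.0.16 (R 4.3.3; TMM, quasi-likelihood, 3 residual degrees of freedom, 2 with the interaction). The prior degrees of freedom were estimated as infinite, so every gene took the fitted trend of spread, and a gene driven by 1 cell is not penalised for it. Genes with at least 10 UMIs expected in the dividing sums, from the mean CPM of both classes, were tested. The script was tested on simulated data. DESeq2 1.42.0, no TMM, other filters, thresholds and comparison cells, and leaving out libraries were alternatives. Named genes were a fixed list, the 12 highest and 12 lowest folds that passed and agreed in direction in all 4 libraries, and up to 4 genes per list. The members and gene lists were chosen with earlier results of these data known. Of 794 list genes 3 were unmatched. Promoters came from RefSeq (GRCm38.p6). Figures were drawn with matplotlib 3.10.9.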

Additional observations from a re-analysis of the deposited data

Results flagged for a closer look

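In 2 genes the difference between dividing and other cells differed between irradiated and sham libraries by the interaction term (edgeR quasi-likelihood test, Benjamini-Hochberg adjusted). For Cdkn1a the value was -2.48 on the log2 scale (adjusted p = 0.000419): the log2 ratio of dividing over matched cells was 3.18 and 1.21 in the sham libraries and 0.27 and 0.24 in the irradiated ones. Over the alternatives it ranged from -3.61 to -1.71, and it did not pass with DESeq2, with 5 or more or 10 or more rule UMIs, without cells carrying markers of another type, at 30 expected UMIs or without the 1 cell with 50 UMIs. For Klf2 the value was -2.41 (adjusted p = 0.00548), with log2 ratios of 1.56 and -0.51 in the sham libraries and -4.15 and -1.22 in the irradiated ones. It did not pass in 8 alternatives, among them all other microglia as the comparison (0.123) and 3 matched cells per dividing cell (0.744). Each treatment has 2 libraries, taken at 6 h and at 1 week, and the 2 times stood as replicates in this fit. The irradiated 6 h library rests on 6 dividing cells and the sham 1-week library on 3.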

How the results depend on the processing

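No gene called in either direction was called in the opposite one under any alternative, and no share of dividing cells left its interval. The 408 higher genes became 194 when 30 UMIs were expected, and 143 to 451 when 1 library was left out (210 without sham at 6 h, 143 without irradiated at 1 week, the latter with 2509 genes tested). The 408 lower genes depended more on the setting: 148 without TMM, 62 with DESeq2, 143 at 30 expected UMIs, 248 at 10 or more rule UMIs, 176 without cells carrying markers of another type, and 29 to 429 when 1 library was left out (117 without sham at 6 h, 251 without irradiated at 6 h, 29 without irradiated at 1 week). All 62 lower and 282 of 283 higher genes of DESeq2 were among the calls of edgeR. Instead of 2 genes the interaction gave 1 at 2 or more rule UMIs (Cdkn1a), 1 without the cell with most Cdkn1a (Klf2) and 1 without cells carrying markers of another type (Ccl5, neither of the 2), and 0 at 5 or more rule UMIs, 0 at 10 or more, 0 with DESeq2 and 0 at 30 expected UMIs. Of 93 named results, 58 kept their side of the threshold with DESeq2 and 85 without TMM. The interaction was not run without each library, since 1 library per treatment would remain on one side. Dividing and matched cells are paired by the library block, and groups, with 1 library each, have no pairs. Depth limits the sham library at 1 week most, with 15140 UMIs in its dividing cells. The settings with 10 or more rule UMIs, with 3 matched cells and without the cell with most Cdkn1a were chosen after seeing the data.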
